A study of Homo sapiens with 4 samples.

Results

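The genes described here are 44 genes of the amino acid response: the transcription factor ATF4 with other stress factors, enzymes and transporters that supply amino acids, and the tRNA synthetases that load amino acids onto tRNA. They were chosen by gene symbol from this pathway and are 44 of 19088 named genes, carried by 45 of 33297 probe sets on an expression array. The 2 probe sets of VARS1 hold identical values, so each member has 1 value a library. There are 13 stress factors, 13 genes of amino acid synthesis and transport and 18 tRNA synthetases. A filter on low values, which kept genes whose mean log2 intensity over the libraries reached the 40th percentile of 5.18, left 40 members among 11453 tested genes. The 4 members that did not pass are all stress factors.

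RNA came from 1 clone, AB7, of the human Burkitt's lymphoma cell line DG75, with the genotype Bcl6-/-;tetBCL6-HA: native BCL6 is deleted, and a BCL6 transgene with an HA tag answers to doxycycline. BCL6 represses transcription in germinal centre B cells. There were 4 libraries of total RNA from cells in RPMI 1640, all of this genotype: 1 labelled 0 h, which had no doxycycline, and 1 labelled 16 h, 1 labelled 48 h and 1 labelled 96 h, with doxycycline at 1 µg/ml for that time. The design asks how expression after the addition of doxycycline compares with the untreated sample. No later library without doxycycline was analysed here, so time in culture and time with the drug cannot be told apart. No time has a replicate, so a difference between single libraries carries no error and no test. A time stands below for the library labelled with it.

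When uncharged tRNA accumulates or the endoplasmic reticulum is overloaded, kinases phosphorylate the initiation factor eIF2, and ATF4 protein is made although most translation slows. ATF4 pairs with C/EBP proteins and binds the C/EBP-ATF response element in genes for amino acid synthesis, amino acid uptake and tRNA charging. Proliferating lymphoma cells need these genes to feed protein and nucleotide synthesis. ATF4 is controlled largely at translation, so its transcript and its protein need not move together, and only RNA was measured here.

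The induced gene goes against its labels. BCL6 read 11.10, 10.58, 10.25 and 10.50 log2 units at 0, 16, 48 and 96 h, so it was highest in the library labelled as untreated. Its limma difference, the 3 doxycycline libraries against 0 h, was -0.66 ± 0.17 (SE) with an adjusted p of 0.105. No source used here states which part of the gene its probe set covers or whether it reads the transgene. Directions below are therefore directions between labelled libraries. Of 8 B cell markers, 7 passed the filter, and MS4A1, which encodes CD20, did not. Summed over the list, B cell markers had a linear intensity of 3007, 3345, 3460 and 3780 at 0, 16, 48 and 96 h. T cell markers summed to 400.3, 436, 529.8 and 494.7, with CD3E, CD3G and TRAT1 past the filter and CD3D, CD2 and CD8A below it. None of 5 measured monocyte markers passed, and their sums were 117.3, 110.4, 116.8 and 115.4. Both lymphocyte sums were higher in each doxycycline library than at 0 h, but single markers differed in direction. PAX5, a B lineage factor, rose by 0.88 ± 0.15 (SE) over 0 h (limma, adjusted p = 0.0335), a call lost in 5 alternatives with an adjusted p of up to 0.0958, while CD79A, a signalling chain of the B cell receptor, read 9.64, 9.26, 9.27 and 9.13. Among T cell markers CD8A read 5.02, 4.83, 4.86 and 4.78. The part of these markers in the results below was not tested. In such bulk RNA, fewer cells of a type and less RNA per cell cannot be told apart.

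The response element was looked for in the RefSeq promoters (GRCh38.p14, 250 bases before to 50 after each start), as the letters TGATGNAAN on both strands. Of the members, 36 had at least 1 promoter in the table, and 13 of those genes, 36.1%, held a match. A gene counted if any of its promoters matched, and positions are counted from the start of the matching promoter. ATF3, CEBPG, ASNS, SLC1A4, SLC1A5, CARS1, GARS1 and TARS1 also had a promoter without a match. Among all genes in the table the share was 4.45% (1215 of 27305), and among tested genes 2.57% (225 of 8762). By class, 2 of 12 stress factors, 4 of 10 amino acid genes and 7 of 14 synthetases held a match. The 13 stretches below are shown because they match the letters of the element that ATF4 binds with C/EBP proteins. Each runs 5′ to 3′ in the direction in which the element reads, on the strand named, with the 9 matched bases in capitals and 16 bases on each side.
ATF3, chr1:212565200-212565240, plus strand: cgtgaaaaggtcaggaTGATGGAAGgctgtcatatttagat
CEBPG, chr19:33374055-33374095, plus strand: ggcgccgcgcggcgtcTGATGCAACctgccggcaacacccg
ASNS, chr7:97872452-97872492, minus strand: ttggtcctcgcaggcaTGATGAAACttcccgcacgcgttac
SLC7A1, chr13:29595657-29595697, minus strand: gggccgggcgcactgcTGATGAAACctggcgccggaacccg
SLC1A4, chr2:64989375-64989415, minus strand: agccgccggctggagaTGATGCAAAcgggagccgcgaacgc
SLC1A5, chr19:46784887-46784927, minus strand: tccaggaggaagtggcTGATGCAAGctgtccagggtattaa
AARS1, chr16:70289670-70289710, plus strand: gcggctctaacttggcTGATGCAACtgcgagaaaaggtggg
CARS1, chr11:3057402-3057442, plus strand: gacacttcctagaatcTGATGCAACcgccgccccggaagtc
GARS1, chr7:30594828-30594868, minus strand: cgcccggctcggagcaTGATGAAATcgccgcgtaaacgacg
IARS1, chr9:92293687-92293727, plus strand: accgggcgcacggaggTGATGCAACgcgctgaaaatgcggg
MARS1, chr12:57488047-57488087, minus strand: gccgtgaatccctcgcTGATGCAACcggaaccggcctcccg
NARS1, chr18:57621798-57621838, minus strand: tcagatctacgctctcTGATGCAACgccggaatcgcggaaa
TARS1, chr5:33440950-33440990, minus strand: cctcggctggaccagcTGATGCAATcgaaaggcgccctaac
The form TGATGCAAC stood in 6 of these genes, CEBPG, AARS1, CARS1, IARS1, MARS1 and NARS1, and TGATGAAAC in ASNS and SLC7A1. A stricter form, TGATGCAAT, was in TARS1 alone among members and in 0.293% of all genes in the table. In 7 of the 13 all matched bases lay within 25 bases of the start, at -8 to 1 in SLC1A4 and 15 to 23 in NARS1, for example, with the first transcribed base as 1. The farthest were ATF3 (-191 to -183) and AARS1 (-188 to -180). A match describes letters in a window and is no evidence of binding. Sequence outside the window was not searched, so a gene without a match may still hold an element elsewhere. The plot of match positions gives all 13.

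**Figure D1:**
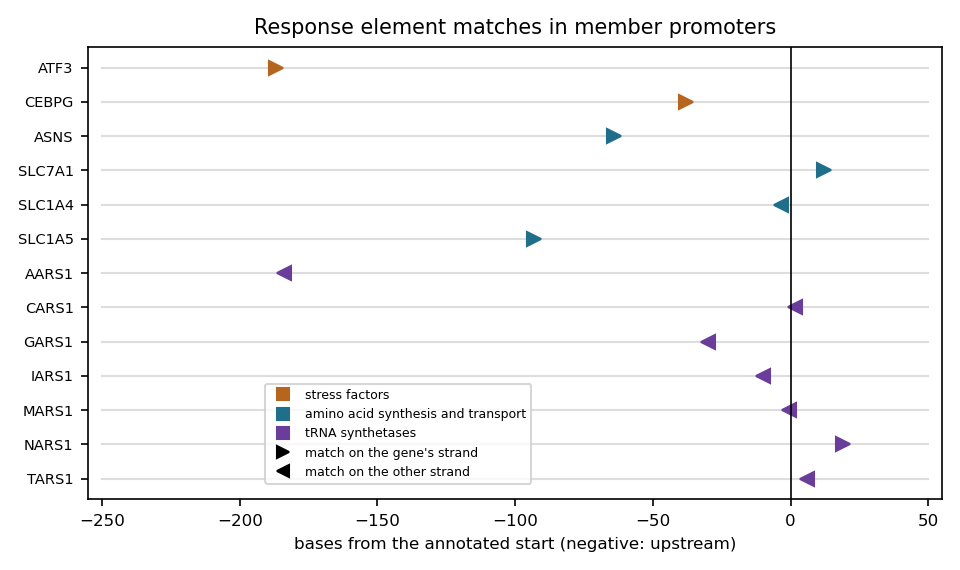
Position of each match to the C/EBP-ATF response element in the RefSeq promoters of 13 members, with 1 row per gene and colour for the member class. The x axis gives bases from the start of the promoter that held the match, and some genes have other promoters without one. Of 7 synthetase matches 5 lie within 25 bases of the start, while those of ATF3 and AARS1 end at -183 and -180.

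Among the stress factors, 3 regulators of the response, ATF4, ATF5 and DDIT3, were lower in the doxycycline libraries from 16 h on, by modest amounts. ATF4, its central transcription factor, read 8.56, 8.17, 8.32 and 7.98 log2 units at 0, 16, 48 and 96 h. ATF5, a related factor with the same kind of translational control, read 9.86, 9.44, 9.58 and 9.06. DDIT3, the pro-apoptotic factor CHOP, read 6.95, 6.63, 6.30 and 6.10. All 3 were highest at 0 h and lowest at 96 h, DDIT3 in steady order and the other two with a partial return at 48 h. At 96 h, DDIT3 was 1.81 times lower than at 0 h, ATF5 1.74 times lower and ATF4, with a log2 difference of -0.58, just short of 1.5 times lower.

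The limma test of all doxycycline times together against 0 h gave DDIT3 a log2 difference of -0.61 ± 0.20 (SE), with an adjusted p of 0.204. ATF5 had -0.50 ± 0.20 with an adjusted p of 0.286, and ATF4 -0.41 ± 0.17 with an adjusted p of 0.290, each lower than 0 h in 3 of 3 doxycycline libraries. Those 3 comparisons share the single 0 h library, so they are not independent. None of the 3 genes passed the threshold of 0.05 after Benjamini-Hochberg adjustment over all 11453 genes. These were the only members with an unadjusted p under 0.05 in that fit, on the lower side as for 5.11% of all tested genes.

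The partners and feedback arms of ATF4 differed less, and not all were lower from 16 h on. CEBPB and TRIB3 were higher at 16 h than at 0 h, by 0.15 and 0.07 log2 units. CEBPG, a dimer partner of ATF4, read 8.41, 8.34, 8.13 and 8.08 at 0, 16, 48 and 96 h. CEBPB, another partner, read 7.21, 7.36, 7.23 and 7.03. TRIB3, a pseudokinase that restrains ATF4 and CHOP, read 7.50, 7.57, 7.34 and 7.21. Those 3 genes stood in falling order over the doxycycline times, with differences of -0.26, -0.33 and -0.36 at 96 h against 16 h. PPP1R15A, which directs a phosphatase to eIF2 and so ends the response, read 6.55, 6.19, 6.34 and 6.19, lower after doxycycline and about equal at 96 and 16 h. LONP1, a mitochondrial protease, read 9.17, 9.04, 9.03 and 8.85.

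VLDLR, a lipoprotein receptor gene that ATF4 induces, was the 1 tested stress factor that was higher at 96 h than at 0 h. It read 8.23, 8.88, 8.51 and 8.52 log2 units at 0, 16, 48 and 96 h. That made it the only member at least 1.5-fold higher at 16 h than at 0 h (1.57-fold), where 4.34% of all tested genes were, and no member was that much lower, where 0.69% were. Without VLDLR and LONP1, the median of the class at 16 h against 0 h was -0.32 in place of -0.13. The 4 untested members, ATF3, NUPR1, GDF15 and STC2, lay below the filter in every library. ATF3, a stress factor of the same family as ATF4, read 4.76, 4.51, 4.31 and 4.21, and the highest value of any of the 4 genes was that 4.76. Whether such low values lie above array background was not tested.

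The genes of amino acid synthesis divided into those that were lower late and those that were not. PSAT1, the aminotransferase of serine synthesis, read 11.39, 11.29, 10.91 and 10.20 log2 units at 0, 16, 48 and 96 h. PHGDH, the first enzyme of that pathway, read 11.13, 11.31, 11.05 and 10.47, and PSPH, the last, read 8.73, 9.13, 8.56 and 7.98. The serine pathway was therefore near or above its 0 h level at 16 h and at its lowest at 96 h in each of its 3 steps. At 96 h PSAT1 was 2.28 times lower than at 0 h and 2.14 times lower than at 16 h. PSPH was 2.21 times lower at 96 h than at 16 h and PHGDH 1.79 times lower.

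ASNS, asparagine synthetase, read 9.71, 9.74, 9.56 and 8.85 log2 units at 0, 16, 48 and 96 h. Most of its difference lay between 48 and 96 h, where it was lower by a log2 difference of -0.71. MTHFD2, the mitochondrial folate enzyme of one-carbon metabolism, read 11.47, 11.69, 11.18 and 10.90, and was 1.73 times lower at 96 h than at 16 h. The other enzymes stayed near their starting levels. SHMT2, which moves a carbon from serine to folate in mitochondria, read 11.14, 11.25, 11.17 and 11.18. ALDH18A1 and PYCR1, both of proline synthesis, read 10.38, 10.49, 10.53 and 10.54, and 8.60, 8.52, 8.70 and 8.47. The log2 differences of these 3 genes at 96 h against 16 h lay between -0.06 and 0.05.

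All 5 amino acid transporters were lower late, and their order over the doxycycline times was the same in each gene. SLC1A4, a carrier of serine, alanine and other neutral amino acids, read 8.35, 8.33, 7.44 and 7.18 log2 units at 0, 16, 48 and 96 h. SLC1A5, the main glutamine carrier of many cancer cells, read 10.22, 10.12, 9.60 and 9.23. Both were close to 0 h at 16 h and well below it by 48 h. SLC7A5, the large neutral amino acid exchanger, read 11.56, 11.56, 11.18 and 10.76. SLC7A1, the carrier of arginine and lysine, read 10.47, 10.38, 9.98 and 9.66, and SLC6A9, a glycine carrier, read 6.73, 6.62, 6.19 and 5.89. In these 3 genes and SLC1A5 the difference was spread over the steps from 16 to 48 h and from 48 to 96 h. SLC1A4 had most of it in the first of these steps, with log2 differences of -0.89 and then -0.26. At 96 h the transporters were 1.75 to 2.24 times lower than at 0 h and 1.65 to 2.21 times lower than at 16 h.

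**Figure D2:**
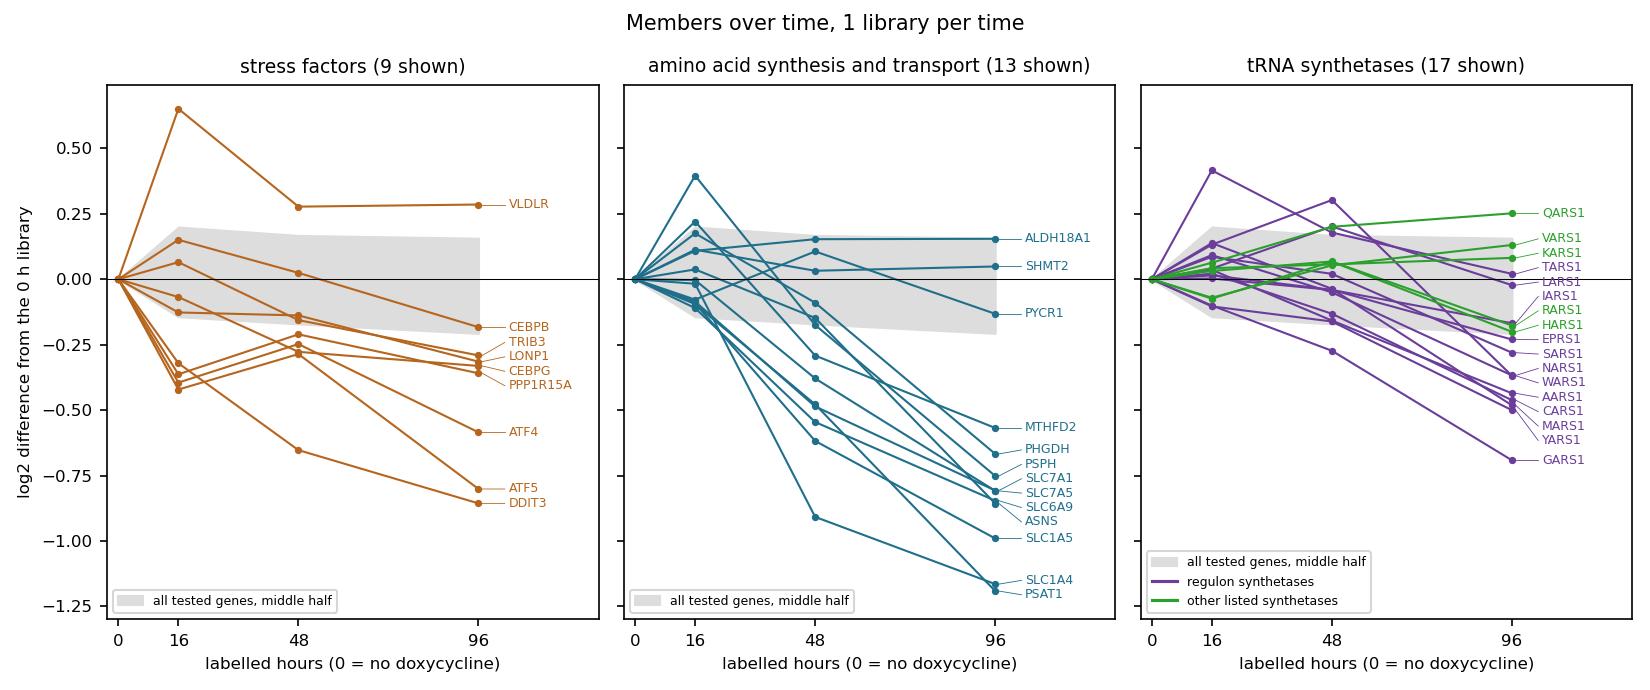
Log2 difference of 39 tested members from the 0 h library (y axis) against labelled hours (x axis), 1 library per time, in 3 panels by class, with the middle 50% of all tested genes shaded. Amino acid genes spread downward from 48 h on, to -1.19 for PSAT1 at 96 h, while SHMT2, ALDH18A1 and the 5 synthetases drawn from outside the ATF4 list (green) stay between -0.20 and 0.25 at every time.

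The tRNA synthetases included genes that were lower late and genes that were not. Of the 18 genes, 12 belong to a list of synthetases commonly given as ATF4 targets, and 6 do not, among them HARS1, KARS1, QARS1, RARS1 and VARS1. At 96 h against 16 h, 12 of the 12 ATF4-listed genes were lower, with a median log2 difference of -0.43. Of the 6 others 2 were lower, with a median of 0.03. Among all tested genes 59.1% were lower in that comparison, with a median of -0.06. The ranges overlapped, since RARS1 and HARS1, outside the list, had differences of -0.21 and -0.13, below the -0.06 of LARS1 inside it. The difference between the 12 and the 6 genes was not tested, and the lists were chosen with earlier results of these data known.

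GARS1, which loads glycine, read 11.75, 11.65, 11.48 and 11.06 log2 units at 0, 16, 48 and 96 h, and was 1.62 times lower at 96 h than at 0 h. MARS1, for methionine, read 10.12, 10.26, 10.09 and 9.64, and was 1.54 times lower at 96 h than at 16 h. These were the only synthetases at least 1.5-fold lower in either comparison, GARS1 in both and MARS1 against 16 h. WARS1, the tryptophanyl enzyme that interferon also induces, followed another course, with 9.49, 9.62, 9.79 and 9.12. It peaked at 48 h and had the largest last step of the class, a log2 difference of -0.67 at 96 h against 48 h. TARS1, for threonine, read 10.76, 11.18, 10.94 and 10.78, so it was above 0 h at 16 h and back at that level by 96 h.

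AARS1, for alanine, read 10.43, 10.47, 10.27 and 9.99 at 0, 16, 48 and 96 h, and CARS1, for cysteine, read 9.32, 9.35, 9.19 and 8.86. NARS1, for asparagine, read 12.25, 12.34, 12.20 and 11.88, YARS1, for tyrosine, 10.85, 10.75, 10.69 and 10.35, and SARS1, for serine, 10.59, 10.67, 10.61 and 10.31. In each of these 5 genes the 96 h library was the lowest, and the step from 48 to 96 h was larger than the step from 16 to 48 h. EPRS1, for glutamate and proline, IARS1, for isoleucine, and LARS1, for leucine, differed least among the 12, with -0.25, -0.17 and -0.06 at 96 h against 16 h.

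Outside the ATF4 list some genes were slightly higher at 96 h than at 0 h and others lower. QARS1, for glutamine, read 9.92, 9.98, 10.12 and 10.17 at 0, 16, 48 and 96 h, and VARS1, for valine, 9.50, 9.43, 9.55 and 9.63. KARS1, for lysine, read 9.83, 9.87, 9.88 and 9.91. HARS1, for histidine, at 9.32, 9.25, 9.39 and 9.12, and RARS1, for arginine, at 9.90, 9.93, 9.96 and 9.72, were the 2 genes of the 6 that were lowest at 96 h, with differences of -0.20 and -0.18 against 0 h. In the multi-synthetase complex, a particle that joins several of these enzymes, among them EPRS1, IARS1, LARS1, MARS1, KARS1, QARS1 and RARS1, members of both kinds sit together. Its 8 genes listed here had a median of -0.12 at 96 h against 16 h, and ranged from -0.62 (MARS1) to 0.19 (QARS1).

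Set side by side, the 3 classes differed in size and in the step at which they were lower. At 16 h against 0 h their median log2 differences were -0.13 for stress factors, -0.00 for amino acid genes and 0.04 for synthetases, beside 0.02 for all tested genes. At 48 h against 0 h they were -0.21, -0.29 and 0.04, beside -0.01. At 96 h against 0 h they were -0.33, -0.81 and -0.22, beside -0.03. By these medians, amino acid genes were lower from 48 h and synthetases at 96 h. Stress factors had a negative median from 16 h on, but at 16 h 3 of 9 were higher than at 0 h. That 16 h median of -0.13 lay above the lower quartile of all tested genes (-0.14). It was close in size to the median residual SD of the limma fit (0.12). With a single library per time, this order of the classes was not tested. The 3 comparisons with 0 h share the 0 h library. Between doxycycline libraries, the step from 16 to 48 h had medians of -0.13, -0.38 and -0.05, and the step from 48 to 96 h -0.18, -0.32 and -0.26, with -0.02 and -0.03 for all tested genes. The synthetase medians at 16 h and 48 h against 0 h and at 48 h against 16 h changed sign under some scalings and have no settled direction.

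Counted over the 40 members, 17 were lower at 16 h than at 0 h, 25 at 48 h and 32 at 96 h, beside 46%, 51.3% and 54.8% of all tested genes. Between doxycycline libraries 27 were lower at 48 h than at 16 h and 34 at 96 h than at 48 h, beside 55.5% and 56% of all tested genes. SLC1A4 was the 1 member at least 1.5-fold lower in the first of these steps, beside 0.742%, and ASNS, PSAT1 and WARS1 were the 3 in the second, beside 0.585%. No member was 1.5-fold higher in either step, beside 0.323% and 0.576%.

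At least 1.5-fold lower at 48 h than at 0 h were 3 of 40 members, DDIT3, SLC1A4 and SLC1A5, where 1.55% of all tested genes were, and none was that much higher, where 4.39% were. At 96 h against 0 h 12 of 40 members were that much lower, beside 3.52% of all tested genes, and no member was that much higher, beside 5.36%. The 12 were DDIT3, ATF5, GARS1, the 5 transporters and ASNS, PSAT1, PHGDH and PSPH. Leaving the 0 h library out, 12 of 40 were at least 1.5-fold lower at 96 h than at 16 h, beside 1.88% of all tested genes, and none was higher, beside 1.27%. Those were the 5 transporters, the 5 enzymes named above as lower late, GARS1 and MARS1. SLC1A4, PSPH and PSAT1 held ranks 8, 9 and 10 from the lowest of the 11453 differences.

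**Figure D3:**
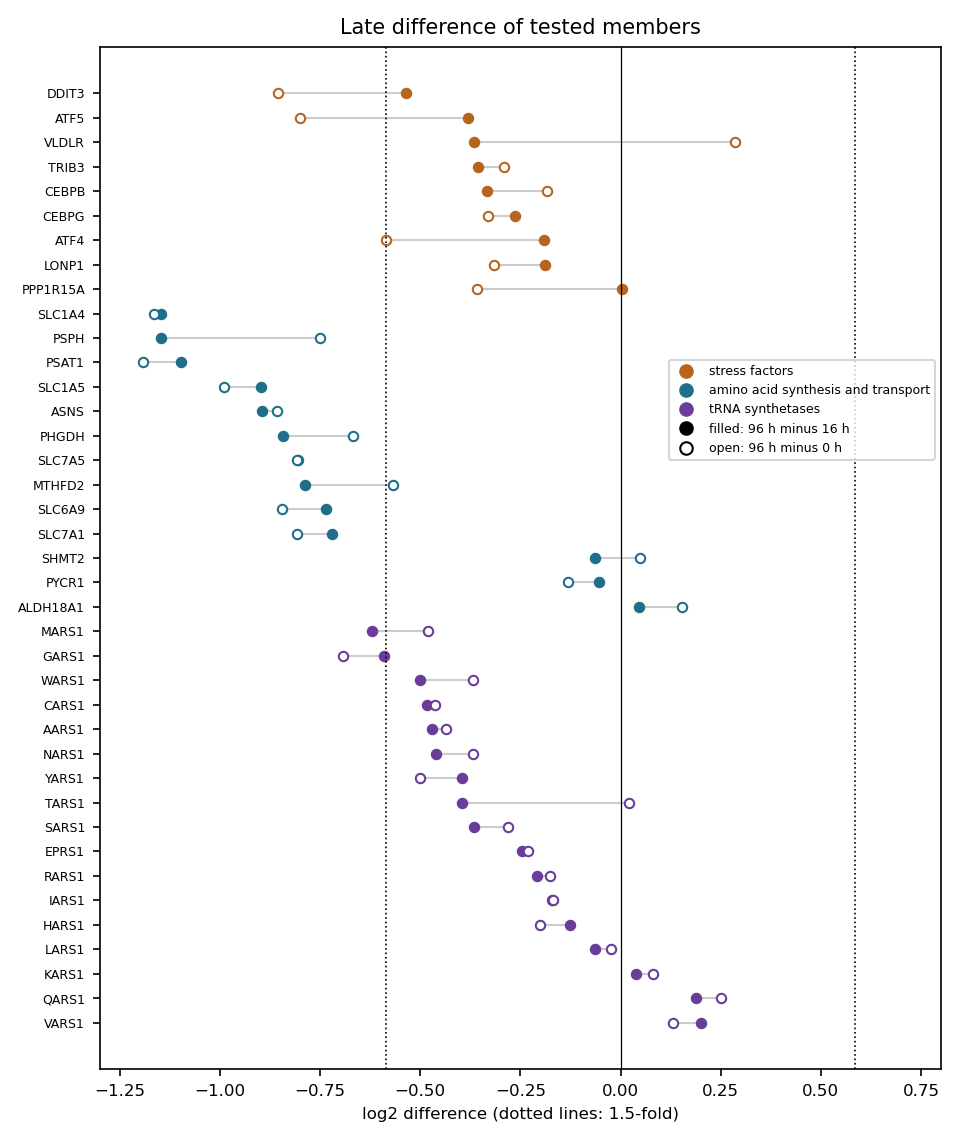
Log2 difference at 96 h against 16 h (filled points) and against 0 h (open points) for 39 tested members, by class, with dotted lines at 1.5-fold. The 10 amino acid genes at the left lie at -0.72 or below against 16 h, while SHMT2, PYCR1 and ALDH18A1 lie near 0.

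The order 16 h above 48 h above 96 h was held by 25 of 40 members, beside 29.6% of all tested genes. It held for 10 of 13 amino acid genes, 10 of the 12 ATF4-listed synthetases, 0 of the 6 other synthetases and 5 of 9 stress factors. The synthetase lists were chosen with earlier results of these data known. This order rests on the same libraries as their late differences. The 96 h library was the lowest of the 4 for 31 of 40 members, beside 34.2% of all tested genes. In all, 34 of 40 members were lower at 96 h than at 16 h, beside 59.1% of all tested genes. Among the 6 exceptions, with differences of 0.00 to 0.20, were PPP1R15A, ALDH18A1, KARS1, QARS1 and VARS1.

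**Figure D4:**
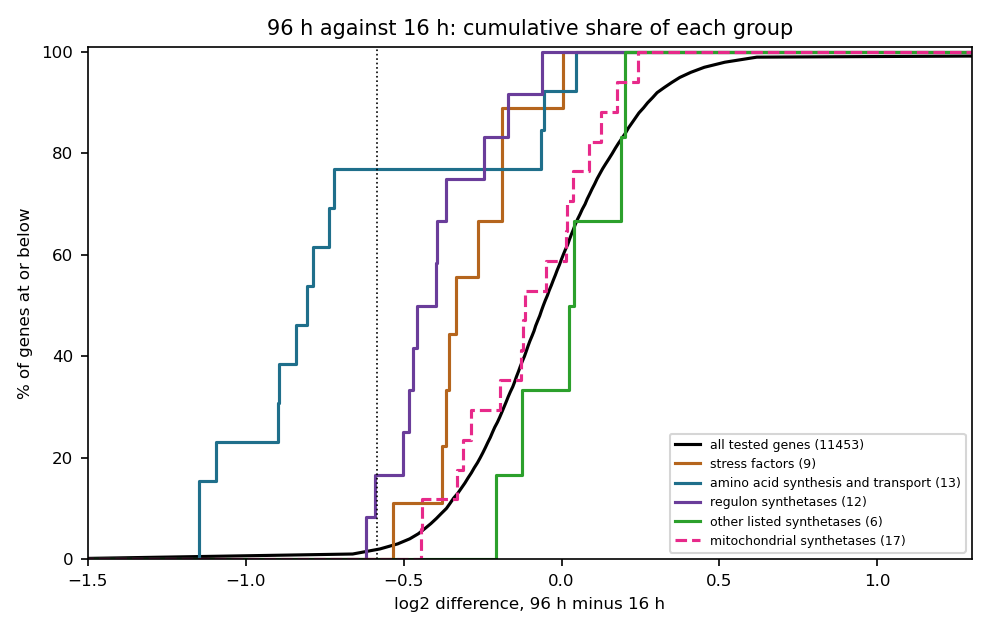
Share of each group at or below a given log2 difference (y axis, percent) at 96 h against 16 h (x axis), for all tested genes, the member classes with the synthetases split, and mitochondrial synthetases. The curve of amino acid genes lies farthest left, with a median of -0.81 beside -0.06 for all tested genes, and the 6 other synthetases lie to the right at 0.03. The synthetase lists were chosen with earlier results of these data known.

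Taken over all doxycycline times against 0 h, limma called none of the 40 members in either direction, beside 1.23% of all tested genes called higher and 0.0786% called lower. Its lowest adjusted p among members was the 0.204 of DDIT3. Without the 16 h library SLC1A4 passed, with a log2 difference of -1.04 and an adjusted p of 0.0342. At an unadjusted p under 0.05 there were 3 members lower and 0 higher, beside 10.2% of all tested genes higher. The spread in that fit holds any real change between 16 and 96 h, and the fit has 2 residual degrees of freedom. Nothing says that the libraries came from separate cultures, so its p-values measure only the spread among these libraries, which may be technical.

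A straight line on labelled hours over the 4 libraries, fitted with limma after the values had been seen, also called none of the 40 members. Among all tested genes it called 0.0873% as rising and 0.0262% as falling. PSAT1 came nearest, with a slope of -1.22 ± 0.16 (SE) log2 units per 96 h and a limma adjusted p of 0.0529. SLC1A5 had -1.04 ± 0.16 with an adjusted p of 0.113, and SLC1A4 had -1.29 ± 0.23 with an adjusted p of 0.169, while SLC6A9, SLC7A5 and SLC7A1 each had 0.172. PSAT1 passed in 5 alternatives, among them leaving out the 0 h library (adjusted p = 0.0459) and leaving out the 16 h library (adjusted p = 0.0486), and PSPH passed without the 0 h library (adjusted p = 0.0480). At an unadjusted p under 0.05, 18 of 40 members had a falling line, beside 8.25% of all tested genes, and 0 a rising one, beside 5.3%. The 18 were 10 amino acid genes, DDIT3, ATF5 and the 6 synthetases GARS1, CARS1, YARS1, AARS1, MARS1 and NARS1. A line is fixed mostly by the 0 and 96 h libraries, and without the 96 h library the adjusted p of PSAT1 was 0.673.

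Late levels were set beside the matches to the response element. The 12 tested members with a match had a median log2 difference of -0.54 at 96 h against 16 h, beside -0.06 for all tested genes. Of these members 12 of 12 were lower, from -1.15 to -0.17, beside 59.1% of all tested genes. The 21 with a promoter but no match had a median of -0.36 and ranged from -1.10 to 0.19, so the ranges overlapped, and 17 were lower. This difference was not tested, and the classes were unevenly spread, with 1 stress factor among the 12 and 8 among the 21. Within the amino acid class the 4 genes with a match had a median of -0.90 and a range of -1.15 to -0.72, and the 6 without one -0.80 and -1.10 to 0.05. Within the synthetases the 7 with a match had -0.47 and -0.62 to -0.17, and the 7 without one -0.21 and -0.50 to 0.19. The 7 without a promoter in the table had -0.06. No match was found for PSAT1, PHGDH, MTHFD2, SLC7A5 or SLC6A9, 5 of the 10 amino acid genes at least 1.5-fold lower at 96 h than at 16 h, and PSPH had no promoter in the table. Of the 10 ATF4-listed synthetases with a promoter 7 held a match, and of the 4 others 0. One promoter each of SLC1A4, with a match, and PSAT1, without one, is shown, since these 2 members had the lowest differences at 96 h against 0 h. A second promoter of SLC1A4 in the table, 300 bases at another start, held no match.
PSAT1, chr9:78296875-78297174, plus strand: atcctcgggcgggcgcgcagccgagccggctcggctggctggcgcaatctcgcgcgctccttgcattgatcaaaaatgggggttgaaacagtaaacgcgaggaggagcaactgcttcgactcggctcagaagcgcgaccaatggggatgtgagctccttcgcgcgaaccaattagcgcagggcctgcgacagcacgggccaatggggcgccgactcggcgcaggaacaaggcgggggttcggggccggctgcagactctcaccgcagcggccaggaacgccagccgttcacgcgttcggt
SLC1A4, chr2:64989149-64989448, plus strand: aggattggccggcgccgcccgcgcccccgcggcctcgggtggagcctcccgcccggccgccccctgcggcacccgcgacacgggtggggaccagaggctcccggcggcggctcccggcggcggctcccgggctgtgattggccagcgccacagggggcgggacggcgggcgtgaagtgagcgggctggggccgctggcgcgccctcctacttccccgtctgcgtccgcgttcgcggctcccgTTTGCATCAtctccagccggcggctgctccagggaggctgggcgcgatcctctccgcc
Both run 5′ to 3′ on the gene's own strand with 50 bases after the start. In SLC1A4 the capitals mark the match, which reads here as its reverse complement because the element lies on the other strand.

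Upstream of ATF4 stand the kinases and the eIF2 machinery. Of these, 7 of 14 tested genes were lower at 96 h than at 0 h, beside 54.8% of all tested genes, with a median of 0.01. EIF2AK3, the kinase PERK of the endoplasmic reticulum, read 8.15, 9.27, 9.19 and 9.21 log2 units at 0, 16, 48 and 96 h. It rose by 1.07 ± 0.14 (SE) in the doxycycline libraries over 0 h (limma, adjusted p = 0.0173), and was the only gene of 14 tested in this list past the threshold. EIF2AK2, the double-stranded RNA kinase PKR, was higher by 1.10 at 96 h than at 0 h, and GCN1, which helps the amino acid sensor GCN2, by 0.34, neither of them called. On the low side EIF2S2 and EIF2S1, subunits of eIF2, had differences of -0.57 and -0.56 at 96 h against 0 h, and PPP1R15B, the constitutive partner of the eIF2 phosphatase, -0.44. The median of the list at 96 h against 16 h was -0.14, with 10 of 14 lower. Among all tested genes it was -0.06, with 59.1% lower. 

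Other genes known as ATF4 targets held larger late differences than any member. SLC7A11, the cystine carrier, read 9.71, 9.49, 8.82 and 7.95 at 0, 16, 48 and 96 h, and CTH, which makes cysteine, read 8.25, 8.18, 7.36 and 6.70. CCPG1, a receptor that sends endoplasmic reticulum to autophagy, read 7.16, 7.14, 6.50 and 5.74. These 3 genes fell along the fitted line, with slopes of -1.80 ± 0.15, -1.65 ± 0.18 and -1.51 ± 0.17 (SE) log2 units per 96 h. Their limma adjusted p was 0.0210, 0.0411 and 0.0411, and they were the 3 falling calls among all tested genes. That line was fitted after the values had been seen. The list of targets was chosen with earlier results of these data known, so these calls are no independent support. Without the 96 h library none of the 3 passed, and CTH and CCPG1 also missed the threshold after loess scaling and without the filter. CHAC1, which degrades glutathione, read 8.10, 8.21, 7.45 and 6.58, with an adjusted p of 0.051 for the line. DDIT4, an inhibitor of mTORC1 that ATF4 shares with other factors, went the other way with 6.85, 8.16, 7.99 and 8.76. It rose by 1.45 ± 0.26 (SE) in the doxycycline libraries over 0 h (limma, adjusted p = 0.0462), a call that was lost in 7 alternatives, with an adjusted p of up to 0.0989, among them leaving out the 16 h library (0.0504). GTPBP2 and BBC3 were higher by 0.44 and 0.20 at 96 h than at 0 h. At 96 h against 16 h, 21 of 25 tested targets were lower, beside 59.1% of all tested genes, with a median of -0.34.

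The mitochondrial tRNA synthetases, which charge tRNA in that compartment and are encoded by separate genes, were close to all tested genes. At 96 h against 16 h 59.1% of all tested genes were lower, with a median of -0.06. The mitochondrial synthetases are given first. Of 17 tested, 10 were lower at 96 h than at 16 h, with a median of -0.11, and none was called in either fit. EARS2, RARS2 and YARS2 had differences of -0.35, -0.34 and -0.19 at 96 h against 0 h, and FARS2, TARS2 and NARS2 of 0.54, 0.37 and 0.31. Among 7 other charging factors, 6 were lower at 96 h than at 16 h, with a median of -0.35 and no call. PSTK, of selenocysteine synthesis, and the complex scaffolds EEF1E1 and AIMP1 had differences of -0.68, -0.65 and -0.38 at 96 h against 0 h, and SEPSECS, also of selenocysteine synthesis, 0.34.

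Of 14 other one-carbon, serine and proline genes 13 were lower at 96 h than at 16 h, with a median of -0.21 and none called. Among all tested genes 59.1% were lower in that comparison. OAT, ornithine aminotransferase, had a difference of -0.53 at 96 h against 0 h, and TYMS, which makes thymidylate, of -0.41. MTHFD1, a cytosolic folate enzyme, was higher by 0.14 and GLUL, glutamine synthetase, by 0.06. Genes of the endoplasmic reticulum stress response outside ATF4 were mixed, with 9 of 15 lower at 96 h than at 16 h and a median of -0.04. That count was near the 59.1% share of all tested genes. HSPA5, the chaperone BiP, read 12.05, 11.12, 11.17 and 10.75 at 0, 16, 48 and 96 h. It fell by 1.04 ± 0.19 (SE) in the doxycycline libraries (limma, adjusted p = 0.0454), a call lost in 5 alternatives, with an adjusted p of up to 0.0837. MANF and DNAJC3 had differences of -0.68 and -0.53 at 96 h against 0 h, and XBP1, HSP90B1 and DNAJB9 of 0.92, 0.31 and 0.26.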

How the data were processed

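Total RNA of 4 libraries was amplified, biotin-labelled and hybridised to a 1-colour array, per the labels' protocols. The authors deposited log2 intensities in 2 tables, read as log2 from their range (2.35 to 14.21 in the first). No source used here states their background correction, normalization, software or genome build. The first table gave the values and the second the symbols, which were updated through RefSeq (GRCh38.p14). Accessions named 17014 probe sets, and current and older symbols another 843 and 836, with 1244 symbols left as deposited. Probe sets with several symbols (2191) were not named. For 621 genes with several probe sets, the one with the highest mean was taken. Library medians lay between 5.24 and 5.31. Arrays give no read depth, and their number limits the precision.

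Limma 3.58.1 in R 4.3.3 (lmFit and eBayes, two-sided) was fitted on all 11453 tested genes. Its p-values were adjusted over all of them by the Benjamini-Hochberg method at 0.05. The main fit was tested on simulated data, and the line on hours was not. The main fit set 3 doxycycline libraries against 1 untreated library, which is assumed to vary like them. Single times were compared by size only, at 1.5-fold. All members are accounted for, BCL6 is given as the induced gene. Of the other pathway lists and the markers, each gene past the limma threshold is named, and of each pathway list also the 3 tested genes with the largest differences in each direction at 96 h against 0 h. Exceptions are a few genes, 1 member and some of the largest differences among them, which are not reported here individually but stay in the counts and medians. The members, classes and lists were chosen with earlier results of these data known. Alternatives were the second table, quantile, loess and median scaling, the mean over probe sets, no filter, a correction for genomic span, other fold thresholds and leaving out each library. Python 3.11.15 with numpy 2.4.6 and pandas 2.3.3 made the summaries.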

Additional observations from a re-analysis of the deposited data

Results flagged for a closer look

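PSPH, the last enzyme of serine synthesis, was the only member at least 1.3-fold to either side of the 0 h library at different times. It was higher than at 0 h by a log2 difference of 0.40 in the 16 h library and lower in the 96 h library, with a difference of -0.75. The readings were 8.73, 9.13, 8.56 and 7.98 log2 units at 0, 16, 48 and 96 h. In the second table the 16 h difference of PSPH was 0.377, just under 1.3-fold, so the flag depends on the processing. With 1 library per time the difference between the 2 effects was not tested.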

How the results depend on the processing

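Among 264 alternative values of the counts and class medians, 247 stayed close and 17 moved further. Close means within 1.5 times of the count or within 0.12 log2 units of the class median. That 0.12 is the median residual SD of the limma fit over tested genes. Signs changed in 7 of the 264, all synthetase medians within 0.07 of 0: at 16 h against 0 h, from 0.04 to -0.06 after median centring, -0.02 after loess and -0.00 with the genomic span correction; at 48 h against 0 h, from 0.04 to -0.03 after median centring; and at 48 h against 16 h, from -0.05 to 0.02 after quantile scaling and 0.00 after loess and the span correction. Among 1473 alternative values of single genes 46 changed sign, none of them called and none a difference between single libraries of 1.5-fold or more. The median of amino acid genes lay between -0.81 and -0.72 at 96 h against 16 h over the second table, the scalings and the other processing choices, that of stress factors between -0.33 and -0.26 and that of synthetases between -0.31 and -0.22. Median centring moved the median of all tested genes at 16 h against 0 h from 0.02 to -0.08. After quantile scaling and after median centring 0 members were at least 1.5-fold higher at 16 h. With 1.3-fold as the threshold, 3 were higher and 2 lower at 16 h, 7 lower at 48 h and 20 lower at 96 h against 16 h. With 2-fold, the counts were 0 higher at 16 h, 0 lower at 48 h, 2 lower at 96 h and 3 lower at 96 h against 16 h. The stress factor median at 16 h without VLDLR and LONP1 was -0.32. The limma count of members lower than at 0 h was 0 to 1 when each doxycycline library was left out in turn, the 1 being SLC1A4 without the 16 h library (-1.04, adjusted p = 0.0342). The count of falling lines, an analysis added after seeing the data, was 1 in the second table, 1 after median centring and 1 with the genomic span correction, each PSAT1, and 0 to 2 when a library was left out, the 2 being PSAT1 and PSPH without the 0 h library. The cause of these moves was not tested. In the second table, whose floor is higher, DDIT3 and SLC6A9 at 96 h differed less from 0 h, by -0.73 and -0.70. No paired analysis was possible because each time has a single library. The array's dim probes limit what can be said of ATF3, NUPR1, GDF15 and STC2.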
